A study of Rattus norvegicus with 15 samples.

Results

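Histones are the proteins around which DNA is wrapped, and their messages fall into classes that are handled differently. The genes named Hist in the rat encode mainly the replication-dependent histones, which are made when DNA is copied and whose messages usually end in a stem-loop in place of a poly-A tail, so that a library built on the poly-A tail holds only the part that carries one. The replacement histones H3.3, H2A.Z, macroH2A and linker histone H1.10 are made throughout the cell cycle from messages with a poly-A tail.

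The genes were chosen by name, as every row of the deposited table whose gene name begins with Hist1h, Hist2h, Hist3h, Hist4h, H2af, H3f3 or H1f. They came to 48 genes in 52 rows, of 46714 genes and unnamed loci in all. Of these, 35 carry a Hist name, and the other 13 are called replacement histones here by their names, although some have particular roles in the germ line. How the message of each of the 13 ends, H2afx among them, was not checked. The 35 Hist-named genes were 6 H1, 12 H2A, 10 H2B, 3 H3 and 4 H4 genes, and 25 of them lay on chromosome 17 and 6 on chromosome 2. Of their 38 rows, 35 had a single exon and 30 had a length that is a multiple of 3, as the coding part alone would have.

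The RNA came from brain microvascular endothelial cells (BMECs), cultured from the brains of Sprague Dawley littermate rats (Spraque-Dawley in the labels). The rats were aged 2 to 3 weeks and of both sexes, and messages were selected by their poly-A tail. There were 15 libraries, 3 in each of 5 groups. The control cells were not exposed to x-rays and were kept in culture for 12 h per their labels, and the other groups were collected 12 h or 24 h after a delivered dose of 5 Gy or 20 Gy. Control cells kept for 24 h were not analysed here. Exposure and longer culture cannot be told apart in the groups collected at 24 h. The sources call the 3 libraries of a group biological replicates but do not say which animals each came from.

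Expression is given as FPKM, fragments scaled to transcript length and to the fragments mapped in the library, summed over the rows of a gene. Library depth, read from the whole multiples in which low FPKM values come, was 5.44 to 7.49 gigabases aligned. The labelled cell type was checked against markers. Of 12 endothelial markers, 11 were in the table and 2 had a mean FPKM of at least 0.5. Cldn5, the tight junction protein of brain endothelium, was at most 0.0328 FPKM, and Tie1 and Emcn were listed at 0 in all libraries. The endothelial list summed to 1.49 to 6.63 FPKM over all libraries. The summed level of 8 fibroblast markers was 1420 to 1500 FPKM in the control group, 960 to 1150 at 12 h and 224 to 301 at 24 h. The named rows of the markers therefore did not bear out the endothelial label. Transcripts of the marker loci without a gene name were not counted. A named row can hold little of its locus, as with the histone gene H2afz, where it held 0.534%. Most of the fibroblast sum in the control group was Col1a1 and Col3a1, which encode collagens and had log2 fold changes of -5.12 and -4.26 at 24 h after 5 Gy. Of the 7 fibroblast markers tested, 1 was lower in each 12 h group and 5 in each 24 h group. Of all genes tested, 3.58% and 2.75% were lower at 12 h after 5 Gy and 20 Gy, and 17.2% and 19.4% at 24 h. Pdgfra, a growth factor receptor of fibroblasts, was 51.72, 52.56 and 51.98 FPKM in the control libraries and 43.78 to 66.79 FPKM at 24 h, and neither it (log2 fold change 0.21 and -0.02) nor Thy1 was called. The part of these marker differences in any histone difference was not tested. In bulk RNA, fewer cells of a type and less RNA per cell cannot be told apart.

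A gene was called at a Benjamini-Hochberg adjusted p (limma, two-sided, over all 24797 genes and loci with a mean FPKM of at least 0.5) below 0.05 with at least a 1.5-fold difference on the log2(FPKM + 1) scale, which understates the change of low genes. Of the 48 histone genes, 25 passed this minimum, 16 Hist-named and 9 replacement genes. The other 23, 19 Hist-named and 4 replacement genes, had mean levels of 0 to 0.478 FPKM, and 2 of them, H1fnt and H2afb3, were listed at 0 in all libraries.

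Upstream sequence is shown for genes whose levels moved in different ways, so that the results can be read beside it. The 150 bases before the annotated start are taken from the RefSeq promoter table of build GRCr8, a different build from that of the data. The capitals mark CCAAT (or ATTGG on the other strand), the octamer ATTTGCAT (or ATGCAAAT) and TATAAA (or TTTATA), letters known from histone promoters. The first and second genes were higher at 12 h, the next pair lie back to back, the fifth is their neighbour and the last is a replacement linker histone.
Hist1h2bcl1, chr17:47392350-47392499, minus strand: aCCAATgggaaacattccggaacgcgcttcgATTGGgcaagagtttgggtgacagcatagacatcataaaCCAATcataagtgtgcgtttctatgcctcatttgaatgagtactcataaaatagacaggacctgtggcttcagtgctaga
H2afj, chr4:171406772-171406921, plus strand: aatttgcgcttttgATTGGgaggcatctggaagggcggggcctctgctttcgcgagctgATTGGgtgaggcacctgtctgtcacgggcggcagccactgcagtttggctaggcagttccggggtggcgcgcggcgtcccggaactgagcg
Hist2h2be, chr2:186469302-186469451, plus strand: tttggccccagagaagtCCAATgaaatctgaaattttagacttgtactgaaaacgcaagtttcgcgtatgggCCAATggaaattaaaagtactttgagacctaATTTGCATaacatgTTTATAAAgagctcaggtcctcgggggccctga
Hist2h2ac, chr2:186469227-186469376, minus strand: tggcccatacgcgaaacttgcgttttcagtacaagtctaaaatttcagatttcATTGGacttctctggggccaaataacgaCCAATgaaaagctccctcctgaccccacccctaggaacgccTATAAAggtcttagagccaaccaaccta
Hist2h2ab, chr2:186468074-186468223, plus strand: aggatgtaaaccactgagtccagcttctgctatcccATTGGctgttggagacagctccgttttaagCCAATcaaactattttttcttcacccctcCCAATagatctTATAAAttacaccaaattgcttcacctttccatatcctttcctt
H1fx, chr4:121998898-121999047, minus strand: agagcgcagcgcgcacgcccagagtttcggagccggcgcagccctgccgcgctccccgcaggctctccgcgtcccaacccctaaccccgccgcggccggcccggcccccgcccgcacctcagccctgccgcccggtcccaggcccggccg

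The windows of Hist2h2be and Hist2h2ac share 75 bases, read on opposite strands. A promoter was matched by name to 38 of the 48 genes, 6 names were ambiguous and 4 had none. For Hist1h4b, Hist2h3c2, Hist1h2ao, H3f3a and H3f3b, the RefSeq gene of that name lies on another chromosome than the deposited row. Their promoters are counted below but may not be those of the measured genes. In the 250 bases before the start, CCAAT was found in 24 of 27 Hist-named promoters (88.9%) and 7 of 11 replacement promoters (63.6%), beside 34.3% of all 27457 promoters. TATAAA was found in 17 Hist-named (63.0%) and 1 replacement promoter (9.09%), beside 13.1% of all. The octamer was found in 10 Hist-named (37.0%) and 1 replacement promoter (9.09%), beside 1.5% of all. Hist2h2be and Hist2h2ac are both among the 10. The octamer marked in Hist2h2be also lies in the 250 bases searched for Hist2h2ac, outside its printed window, and is counted for both. These are matches of letters and not measured sites.

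Summed over each class, histone messages were lower after exposure, and the lowest sums were at 24 h. The 35 Hist-named genes summed to 427.5, 340.2 and 355.7 FPKM in the control libraries. Their sum was 307.7, 268.5 and 322.3 FPKM 12 h after 5 Gy and 298.7, 290.8 and 328.8 FPKM 12 h after 20 Gy. It was 133.2, 83.09 and 104.7 FPKM 24 h after 5 Gy and 208.2, 175.8 and 189.1 FPKM 24 h after 20 Gy. All exposed libraries were therefore below all control libraries, and the 24 h groups did not overlap with each other. The mean at 24 h was 0.286 of the control mean after 5 Gy and 0.510 after 20 Gy.

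The 13 replacement genes summed to 1424, 1213 and 1307 FPKM in the control libraries. Their mean was 896.3 ± 16.93 (SD, n = 3) 12 h after 5 Gy and 884.5 ± 69.65 12 h after 20 Gy. At 24 h it was 382.1 ± 19.29 after 5 Gy and 441.4 ± 53.58 after 20 Gy. In proportion to the control mean, the replacement sum at 24 h was 0.291 and 0.336. A few genes carried both sums: Hist1h1c and Hist1h2bcl1 held 68.0% to 78.9% of the Hist-named sum, and H3f3a and H3f3b held 79.2% to 86.6% of the replacement sum. No test was made on the sums.

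**Figure D1:**
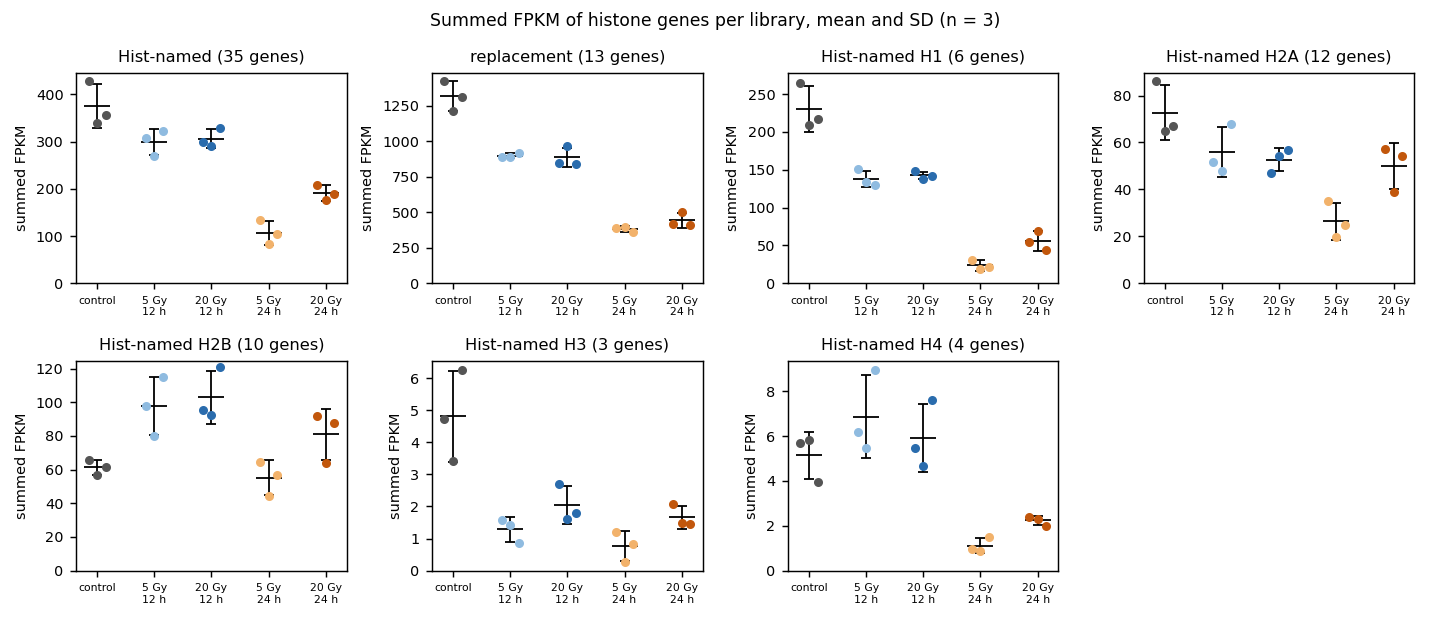
Summed FPKM (vertical axes, linear from 0) of the Hist-named and replacement classes and of the 5 Hist-named families in each library. Points are libraries, and bars are the mean and SD of 3. Both classes were lowest at 24 h, while the H2B sum was highest at 12 h, with a mean of 103.0 FPKM after 20 Gy compared with 61.36 FPKM in the control group. Without Hist1h2bcl1 these H2B means are 5.828 and 8.346 FPKM.

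The H1 sum averaged 230.4 ± 30.25 FPKM in the control group and 23.45 ± 6.869 FPKM 24 h after 5 Gy. The H2A sum went from 72.70 ± 11.70 to 26.44 ± 7.833 FPKM over the same groups. The H2B sum was 61.36 ± 4.649 FPKM in the control group, 97.75 ± 17.42 FPKM 12 h after 5 Gy and 55.24 ± 10.44 FPKM 24 h after 5 Gy. Most of the H2B sum was 1 gene, Hist1h2bcl1. The other 9 H2B genes summed to 8.346 ± 0.3234 FPKM in the control group, 5.867 ± 2.366 FPKM 12 h after 5 Gy, 5.828 ± 0.5948 FPKM 12 h after 20 Gy and 1.730 ± 0.4808 FPKM 24 h after 5 Gy, all lower than in the control group. The H3 and H4 sums were small, at 4.812 and 5.153 FPKM in the control group.

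By single genes, 2 of the 25 tested histone genes were called higher and 4 lower 12 h after 5 Gy. Of all genes tested, 3.71% were called higher and 3.58% lower in this comparison. At 12 h after 20 Gy, 2 were higher and 5 lower, where 3.46% of all genes were higher and 2.75% lower. At 24 h no histone gene was called higher after either dose in limma, 17 of 25 were lower after 5 Gy and 15 of 25 after 20 Gy. Among all genes at 24 h, 17.1% were higher and 17.2% lower after 5 Gy, and 14.5% were higher and 19.4% lower after 20 Gy. At an unadjusted p under 0.05, no histone gene was higher 24 h after 5 Gy and 2 were higher 24 h after 20 Gy. The share of all genes at an unadjusted p was not counted, here or below. The median log2 fold change of the 25 genes was -1.28 and -0.75 at 24 h after 5 Gy and 20 Gy, compared with -0.03 and -0.11 over all genes tested. The count of 7 at 12 h after 20 Gy was 4 without control replicate 2 or replicate 2 of its own group and 3 without replicate 3 of its own group.

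**Figure D2:**
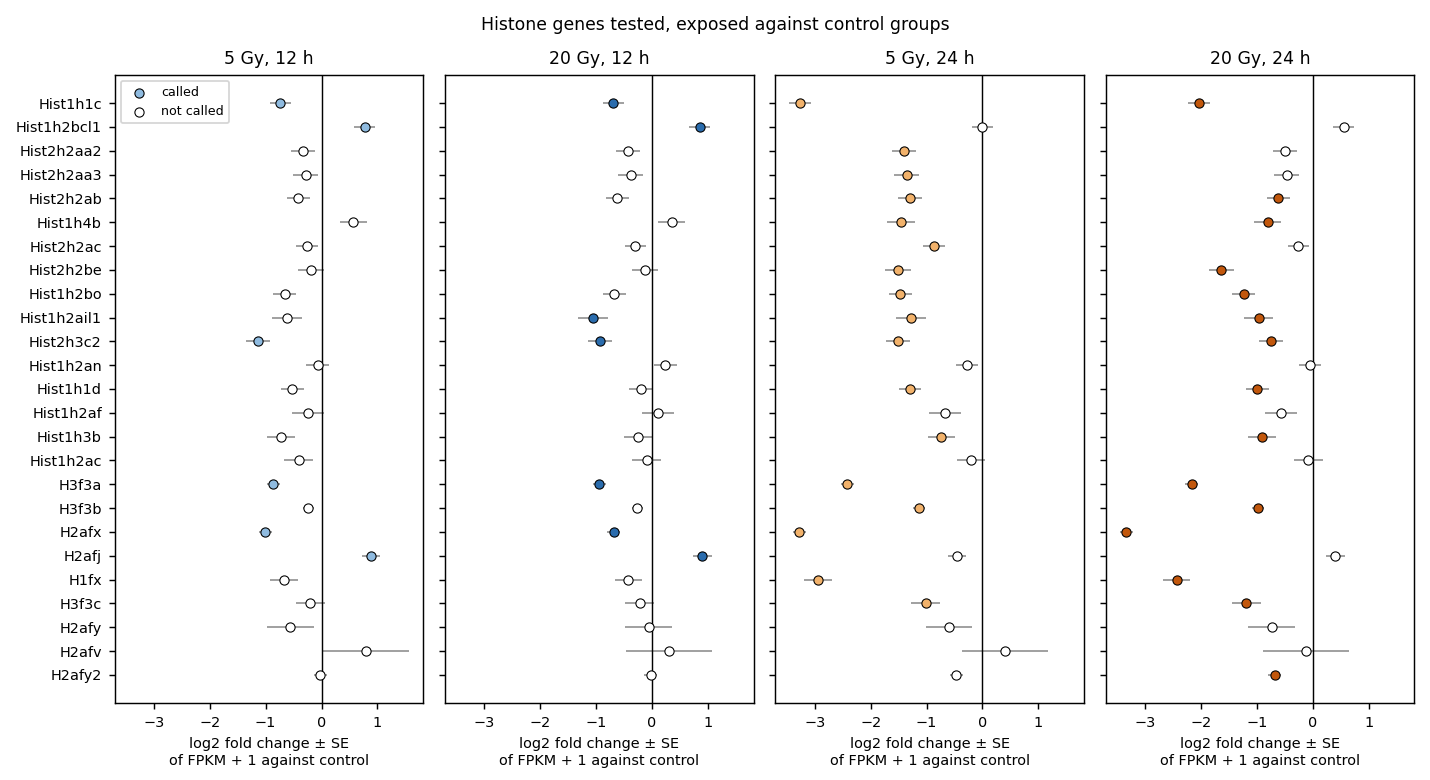
Log2 fold change ± SE of FPKM + 1 (horizontal axes) for the 25 histone genes tested (vertical axis), in each exposed group against the control group. Filled points were called and open points were not. At 12 h called points lie on both sides of 0, and at 24 h all called points lie below 0.

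Among the Hist-named genes, 12 of 16 were lower 24 h after 5 Gy and 9 of 16 after 20 Gy. Among the replacement genes, 5 of 9 and 6 of 9 were lower. These comparisons share the control libraries.

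By the libraries alone, all 3 exposed libraries lay below all 3 control libraries for 5 of 16 Hist-named and 4 of 9 replacement genes 12 h after 5 Gy, where this held for 14.2% of all genes tested. They lay above for 2 Hist-named genes and 1 replacement gene, beside 17.0% of all genes. At 12 h after 20 Gy, 7 Hist-named and 3 replacement genes lay below (14.4% of all genes), and 2 and 1 lay above (15.8%). At 24 h after 5 Gy, 12 Hist-named and 7 replacement genes lay below (28.9%) and none above (26.6%). At 24 h after 20 Gy, 11 and 7 lay below (30.4%), and 1 of each class lay above (21.8%). Between the doses at 24 h, 7 Hist-named genes and 1 replacement gene lay above in all 20 Gy libraries (6.08%), and 1 replacement gene lay below (13.3%).

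Hist1h1c, a linker histone that holds together turns of chromatin, was the most abundant Hist-named gene. It lies at chr17:43639749-43640387 of Rnor_6.0, in 1 exon on the minus strand. Its FPKM was 261.9, 207.2 and 214.1 in the control libraries. It was 148.3, 131.8 and 127.1 12 h after 5 Gy and 145.3, 136.1 and 139.0 with 20 Gy. At 24 h it was 30.87, 18.22 and 20.67 after 5 Gy and 54.38, 69.13 and 42.69 after 20 Gy. No exposed library overlapped with the control group, and the 20 Gy libraries at 24 h lay above the 5 Gy libraries. The log2 fold change was -3.26 ± 0.19 (SE, limma adjusted p = 1.8e-07) 24 h after 5 Gy and -2.04 ± 0.19 (limma adjusted p = 6.1e-06) 24 h after 20 Gy. At 12 h it was -0.74 (limma adjusted p = 0.031) and -0.69 (limma adjusted p = 0.047). The call 12 h after 20 Gy was lost in 11 of 15 fits that left out 1 library, with an adjusted p of up to 0.142: those without any control library, any 12 h library, replicate 3 at 24 h after 5 Gy or replicate 1 at 24 h after 20 Gy. The call 12 h after 5 Gy was lost without any control library or any library of its own group, with an adjusted p of up to 0.103. Of 9 other processing alternatives, listed at the end, 5 lost the call after 20 Gy (limma adjusted p up to 0.0867). The call after 5 Gy was lost in 1 of these 9 (limma adjusted p = 0.061).

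Hist1h2bcl1, an H2B gene, was the only Hist-named gene called higher in a comparison with the control group. It lies at chr17:43679925-43689311 of Rnor_6.0 on the minus strand, in 2 exons, 39537 bases from Hist1h1c. Its FPKM was 57.15, 48.52 and 53.37 in the control libraries. It was 91.48, 76.97 and 107.2 at 12 h after 5 Gy and 90.47, 86.19 and 114.8 at 12 h after 20 Gy. It was 62.90, 42.91 and 54.71 at 24 h after 5 Gy and 89.74, 61.65 and 85.94 at 24 h after 20 Gy. Libraries at 12 h and those 24 h after 20 Gy were all above the control group, while those 24 h after 5 Gy overlapped with it. The log2 fold change at 12 h was 0.77 ± 0.18 (limma adjusted p = 0.020) after 5 Gy and 0.85 ± 0.18 (limma adjusted p = 0.013) after 20 Gy. The call after 5 Gy was lost without control replicate 2 or 3 or without replicate 1 or 3 of its own group, with an adjusted p of up to 0.0825. The call after 20 Gy was lost without control replicate 2 or replicate 3 of its own group, with an adjusted p of up to 0.0595. At 24 h after 20 Gy it was 0.55 (limma adjusted p = 0.029), under the fold threshold. On the opposite strand, 4 assembled transcripts overlap this gene, with 3.48 to 13.2 FPKM in all, and the sources do not say whether the reads kept their strand.

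The ratio of Hist1h2bcl1 to Hist1h1c was 0.218 to 0.249 in the control libraries, 0.584 to 0.844 at 12 h and 0.892 to 2.65 at 24 h. This restates the values above and is not a further result. It sets the only Hist-named gene called higher against one that was lower than the control group in every exposed library.

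**Figure D3:**
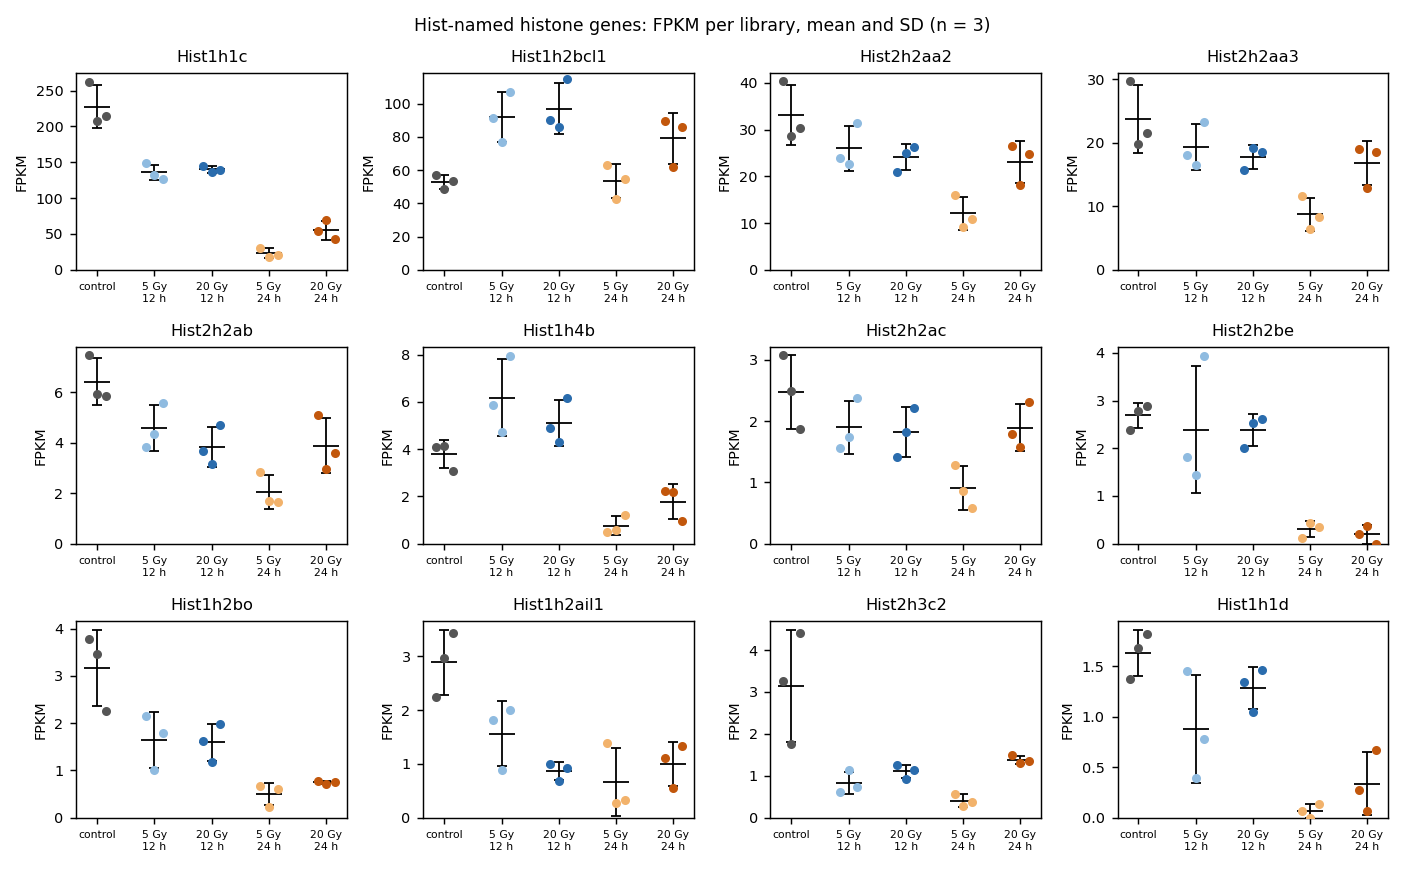
FPKM per library (vertical axes, linear from 0) of 12 Hist-named genes, with the mean and SD of 3 libraries as bars. Hist1h1c fell at each time, Hist1h2bcl1 was highest at 12 h, and Hist2h2be reached at most 0.4342 FPKM at 24 h.

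The chromosome 2 cluster held H2A genes close together. Hist2h2aa2 and Hist2h2aa3 are near-identical H2A copies 6618 bases apart, and how the deposited values divide reads between them is uncertain. Hist2h2aa2 was 40.48, 28.54 and 30.30 FPKM in the control libraries and 16.12, 9.139 and 10.95 FPKM 24 h after 5 Gy. The groups did not overlap, and its log2 fold change was -1.40 ± 0.22 (limma adjusted p = 0.00025). After 20 Gy it was 26.49, 18.08 and 24.89 FPKM at 24 h and was not called (log2 fold change -0.50). At 12 h it was 23.95, 22.57 and 31.51 FPKM after 5 Gy and 21.01, 24.97 and 26.39 FPKM after 20 Gy, and was not called. Hist2h2aa3 was 29.77, 19.82 and 21.57 FPKM in the control libraries. At 12 h it was 18.01, 16.50 and 23.35 FPKM after 5 Gy and 15.64, 19.14 and 18.59 FPKM after 20 Gy. At 24 h it was 11.57, 6.354 and 8.275 FPKM after 5 Gy and 19.08, 12.84 and 18.58 FPKM after 20 Gy. The ratio of Hist2h2aa3 to Hist2h2aa2 stayed within 0.695 to 0.767 over all libraries, and Hist2h2aa3 had a log2 fold change of -1.36 and -0.47 in the same comparisons.

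Hist2h2ab, another H2A gene, was 7.486, 5.919 and 5.858 FPKM in the control libraries, 2.837, 1.677 and 1.645 FPKM 24 h after 5 Gy and 5.090, 2.965 and 3.605 FPKM 24 h after 20 Gy. At 12 h it was 3.828, 4.348 and 5.575 FPKM after 5 Gy and 3.683, 3.145 and 4.708 FPKM after 20 Gy. All exposed libraries were below the control group. Its log2 fold change at 12 h was -0.42 and -0.62, and neither was called. At 24 h its log2 fold change was -1.30 (limma adjusted p = 0.00036) and -0.62 (limma adjusted p = 0.033), and the call after 20 Gy was lost without any control library or without replicate 2 or 3 of its own group, with an adjusted p of up to 0.116. This call was also lost in 2 of the 9 other processing alternatives (limma adjusted p up to 0.0705).

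Hist2h2be, an H2B gene, and Hist2h2ac, an H2A gene, are the pair with shared upstream bases, and their deposited rows lie 319 bases apart. Hist2h2be was 2.389, 2.789 and 2.886 FPKM in the control libraries and 0.1154, 0.4342 and 0.3593 FPKM 24 h after 5 Gy. At 24 h after 20 Gy it was 0.1989 and 0.3800 FPKM and listed at 0 in the remaining library, where 3 reads of 150 bases would give up to 0.217 FPKM in the shallowest library. The 24 h libraries were all below the control group. At 12 h it was 1.810, 1.446 and 3.925 FPKM after 5 Gy and 2.009, 2.535 and 2.624 FPKM after 20 Gy, and was not called. The log2 fold change at 24 h was -1.51 ± 0.23 (limma adjusted p = 0.00024) and -1.64 ± 0.23 (limma adjusted p = 0.00013). Hist2h2ac was 3.070, 2.498 and 1.869 FPKM in the control libraries. It was 1.560, 1.747 and 2.380 FPKM 12 h after 5 Gy and 1.407, 1.829 and 2.217 FPKM 12 h after 20 Gy, and was not called at 12 h. It was 1.284, 0.8510 and 0.5807 FPKM 24 h after 5 Gy and 1.787, 1.570 and 2.312 FPKM 24 h after 20 Gy. Its log2 fold change was -0.87 (limma adjusted p = 0.0030) after 5 Gy and -0.26 (limma adjusted p = 0.30) after 20 Gy, where it overlapped with the control group. The difference between the pair was not tested.

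Hist1h4b, an H4 gene in the table, lies on chromosome 4, 2983 bases from H2afj, whereas RefSeq places a gene of this name on another chromosome, so which H4 copy was measured is uncertain. It was 4.103, 4.141 and 3.092 FPKM in the control libraries. It was 5.885, 4.719 and 7.940 FPKM 12 h after 5 Gy and 4.896, 4.285 and 6.182 FPKM 12 h after 20 Gy, above the control group in all libraries but not called (log2 fold change 0.57 and 0.35). In the 24 h groups it was 0.4745, 0.5845 and 1.215 FPKM after 5 Gy and 2.223, 2.175 and 0.9453 FPKM after 20 Gy, below the control group. It was called lower at 24 h, with a log2 fold change of -1.46 (limma adjusted p = 0.00046) and -0.81 (limma adjusted p = 0.018). The call after 20 Gy was lost without control replicate 1 or 2 or replicate 3 of its own group, with an adjusted p of up to 0.0756. This call was also lost in 1 of the 9 other processing alternatives (limma adjusted p = 0.0571).

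The remaining Hist-named genes were low. Hist1h2bo, an H2B gene, was 3.783, 3.464 and 2.257 FPKM in the control libraries, 0.6650, 0.2258 and 0.5977 FPKM 24 h after 5 Gy and 0.7673, 0.7141 and 0.7453 FPKM 24 h after 20 Gy. In the 12 h groups it was 2.158, 0.9981 and 1.790 FPKM after 5 Gy and 1.611, 1.179 and 1.975 FPKM after 20 Gy. All exposed libraries were below the control group, and it was called lower at 24 h (log2 fold change -1.47 and -1.24). At 12 h its log2 fold change of -0.66 and -0.68 was not called (limma adjusted p = 0.067 and 0.066), but both were called with the unnamed transcripts of loci added (limma adjusted p = 0.034 for both). Hist2h3c2, an H3 gene whose name RefSeq places on another chromosome, was 3.269, 1.752 and 4.419 FPKM in the control libraries against 0.6056, 1.125 and 0.7410 FPKM 12 h after 5 Gy and 1.248, 0.9255 and 1.136 FPKM 12 h after 20 Gy. In the 24 h groups it was 0.5635, 0.2684 and 0.3804 FPKM after 5 Gy and 1.492, 1.293 and 1.351 FPKM after 20 Gy. No exposed library reached the control group. It was called lower in all comparisons with the control group, with log2 fold changes for 5 Gy and 20 Gy of -1.14 and -0.93 at 12 h, and of -1.51 and -0.75 at 24 h. At 12 h after 20 Gy this call was lost without control replicate 1 or 3 or replicate 2 or 3 of its own group, with a limma adjusted p of up to 0.0647. At 24 h after 20 Gy it was lost without control replicate 3 (limma adjusted p = 0.052). Of the 9 other processing alternatives, 1 lost the call 12 h after 5 Gy (limma adjusted p = 0.0853). The 20 Gy calls were each lost in 1 of the 9 (limma adjusted p = 0.127 at 12 h and 0.085 at 24 h).

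Hist1h2ail1, an H2A gene, was 2.251, 2.978 and 3.437 FPKM in the control libraries. It was 1.818, 0.8767 and 1.999 FPKM 12 h after 5 Gy and 0.9898, 0.6776 and 0.9212 FPKM 12 h after 20 Gy. It was 1.382, 0.2639 and 0.3219 FPKM 24 h after 5 Gy and 1.114, 0.5433 and 1.328 FPKM 24 h after 20 Gy. All exposed libraries were below the control group. It was called lower 12 h after 20 Gy (log2 fold change -1.05) and in both 24 h groups (-1.28 and -0.97), and the first call was lost without control replicate 2 or 3 or without any library of its own group. This first call was also lost in 1 of the 9 other processing alternatives (limma adjusted p = 0.0827). Hist1h1d, a linker histone, was 1.377, 1.680 and 1.823 FPKM in the control libraries. It was 1.452, 0.3926 and 0.7818 FPKM 12 h after 5 Gy and 1.344, 1.049 and 1.459 FPKM 12 h after 20 Gy. In the 24 h groups it was 0.06633 and 0.1376 FPKM and listed at 0 in the remaining library after 5 Gy, and 0.2745, 0.06043 and 0.6705 FPKM after 20 Gy. Both 24 h groups were below the control group, and it was called lower in both (log2 fold change -1.30 after 5 Gy and -0.998 after 20 Gy). Hist1h3b was called lower at 24 h after both doses, with -0.74 and -0.91. Hist1h2an, Hist1h2af and Hist1h2ac, all H2A genes, were called in no comparison, with log2 fold changes from -0.67 to 0.24 against the control group.

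Among the 23 genes under the minimum, the group mean was lower than the control mean in 17 and higher in 1 at 24 h after 5 Gy, and lower in 16 and higher in 4 after 20 Gy. Their levels were at most 1.62 FPKM in any library, so that these are counts of direction without a test. The same counts over all features under the minimum were not made.

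H3f3a and H3f3b both encode the replacement histone H3.3, which is put into chromatin outside of S phase. In the deposited table H3f3a lies beside Unk and Galk1 and H3f3b beside Sde2 and Acbd3, and RefSeq gives the 2 names the other way round. The names of the table are kept here. H3f3a was the most abundant histone gene, in 4 exons at chr10:104573664-104575890 of Rnor_6.0. Its FPKM was 815.7, 621.4 and 652.6 in the control libraries. It was 358.2, 394.6 and 386.0 at 12 h after 5 Gy and 352.9, 369.5 and 352.8 at 12 h after 20 Gy. It was 127.1, 135.4 and 121.7 at 24 h after 5 Gy and 156.6, 176.2 and 129.3 at 24 h after 20 Gy. The control, 12 h and 24 h libraries did not overlap, and the doses overlapped at 12 h. The log2 fold change was -0.86 (limma adjusted p = 0.00074) and -0.95 (limma adjusted p = 0.00046) at 12 h, and -2.42 (limma adjusted p = 4.6e-08) and -2.17 (limma adjusted p = 8.3e-08) at 24 h.

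H3f3b was 417.7, 400.8 and 452.5 FPKM in the control libraries, 202.4, 192.9 and 180.1 FPKM 24 h after 5 Gy and 186.5, 246.8 and 210.6 FPKM 24 h after 20 Gy. In the 12 h groups it was 378.8, 353.1 and 348.1 FPKM after 5 Gy and 333.5, 395.0 and 332.9 FPKM after 20 Gy, below all control libraries, but was not called (log2 fold change -0.23 and -0.26). At 24 h the log2 fold change was -1.14 (limma adjusted p = 4e-06) and -0.99 (limma adjusted p = 1.3e-05). H3f3c, which RefSeq lists as a pseudogene, shares sequence with the H3.3 genes, so its values are uncertain. It was 23.75, 21.62 and 25.63 FPKM in the control libraries. In the 12 h groups it was 20.18, 23.61 and 17.97 FPKM after 5 Gy and 25.34, 19.86 and 16.28 FPKM after 20 Gy, overlapping with the control group. In the 24 h groups it was 11.24, 12.13 and 10.16 FPKM after 5 Gy and 10.22, 15.46 and 5.739 FPKM after 20 Gy, below the control group, with a log2 fold change of -1.02 (limma adjusted p = 0.0077) and -1.19 (limma adjusted p = 0.0030).

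H2afx encodes H2A.X, which is phosphorylated around DNA breaks. It lies in 1 exon at chr8:48665652-48666981 of Rnor_6.0. Its FPKM was 65.64, 71.08 and 63.64 in the control libraries. It was 30.96, 32.12 and 35.24 at 12 h after 5 Gy and 39.75, 44.23 and 39.60 at 12 h after 20 Gy. It was 6.290, 6.283 and 5.369 at 24 h after 5 Gy and 4.624, 6.358 and 6.226 at 24 h after 20 Gy. The control, 12 h and 24 h libraries did not overlap with each other. Its log2 fold change was -1.01 (limma adjusted p = 0.0002) and -0.68 (limma adjusted p = 0.0029) at 12 h, and -3.28 ± 0.11 (limma adjusted p = 3e-09) and -3.34 ± 0.11 (limma adjusted p = 2.4e-09) at 24 h.

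H1fx, a replacement linker histone, was 54.71, 54.75 and 41.65 FPKM in the control libraries, 7.343, 7.027 and 3.297 FPKM 24 h after 5 Gy and 6.539, 10.03 and 8.994 FPKM 24 h after 20 Gy. The 24 h libraries did not overlap with the control group, and the log2 fold change was -2.95 (limma adjusted p = 2.1e-06) and -2.44 (limma adjusted p = 1e-05). In the 12 h groups it was 28.51, 29.27 and 35.36 FPKM after 5 Gy and 30.27, 41.99 and 39.82 FPKM after 20 Gy. It was not called at 12 h (log2 fold change -0.68 and -0.42).

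H2afj encodes H2A.J, an H2A variant, and was the only replacement gene called higher. Its FPKM was 17.10, 24.06 and 23.90 in the control libraries. It was 39.22, 35.94 and 47.17 at 12 h after 5 Gy and 37.30, 45.74 and 40.42 at 12 h after 20 Gy. It was 17.30, 14.48 and 14.68 at 24 h after 5 Gy and 34.66, 24.34 and 27.92 at 24 h after 20 Gy. All 12 h libraries were above the control group, the 24 h libraries after 5 Gy overlapped with it, and those after 20 Gy lay above it. Its log2 fold change at 12 h was 0.89 ± 0.16 (limma adjusted p = 0.0051) and 0.90 ± 0.16 (limma adjusted p = 0.0053). In the 24 h groups it was -0.45 (limma adjusted p = 0.043) and 0.40 (limma adjusted p = 0.067), and neither passed the threshold, although the difference after 5 Gy passed it without control replicate 1 (-0.60, limma adjusted p = 0.0115).

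**Figure D4:**
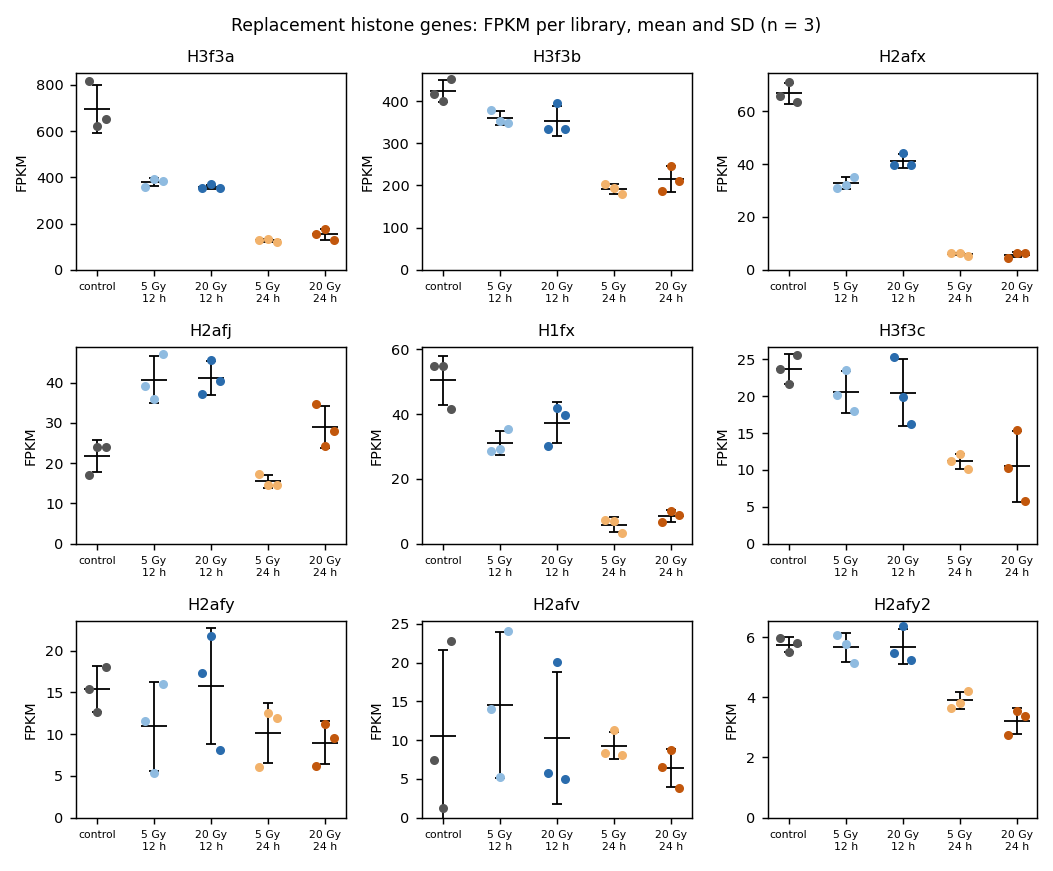
FPKM per library (vertical axes, linear from 0) of the 9 replacement histone genes tested, with the mean and SD of 3 libraries as bars. H3f3a, H2afx and H1fx were lowest at 24 h, and H2afj was highest at 12 h, at 35.94 to 47.17 FPKM.

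H2afy and H2afy2 encode the macroH2A proteins, H2A variants with an extra globular domain. H2afy2 was 5.962, 5.491 and 5.809 FPKM in the control libraries, 3.648, 3.823 and 4.210 FPKM 24 h after 5 Gy and 2.733, 3.542 and 3.392 FPKM 24 h after 20 Gy. The 24 h libraries were below the control group, with a log2 fold change of -0.47 (limma adjusted p = 0.0065, under the fold threshold) and -0.68 (limma adjusted p = 0.00055). In the 12 h groups it was 6.075, 5.775 and 5.131 FPKM after 5 Gy and 5.472, 6.358 and 5.234 FPKM after 20 Gy, overlapping with the control group.

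The named rows of H2afy gave 15.46, 12.63 and 18.10 FPKM in the control libraries. They gave 11.52, 5.327 and 15.96 FPKM 12 h after 5 Gy and 17.38, 21.71 and 8.074 FPKM 12 h after 20 Gy. They gave 6.046, 12.55 and 11.94 FPKM 24 h after 5 Gy and 6.139, 11.17 and 9.581 FPKM 24 h after 20 Gy. H2afy was called in no comparison with the control group. H2afv, which encodes an H2A.Z protein, was 7.429, 1.258 and 22.82 FPKM in the control libraries. It was 14.03, 5.277 and 24.14 FPKM 12 h after 5 Gy and 5.723, 20.09 and 5.029 FPKM 12 h after 20 Gy. It was 8.332, 11.26 and 8.137 FPKM 24 h after 5 Gy and 6.549, 8.705 and 3.854 FPKM 24 h after 20 Gy. All exposed groups lay within the range of the control group or overlapped with it, and H2afv was not called.

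For 5 replacement genes the table also holds transcripts of the same locus without a name. H2afz, the other H2A.Z gene, had 0.534% of its locus in the named row, and so a named mean of 0.4297 FPKM beside a locus mean of 80.42 FPKM. Summed over the locus, H2afz was 102.5, 139.4 and 151.3 FPKM in the control libraries. It was 55.08, 46.61 and 52.69 FPKM 24 h after 5 Gy and 57.17, 56.42 and 60.02 FPKM 24 h after 20 Gy. The groups did not overlap, and the log2 fold change of the locus was -1.32 (limma adjusted p = 2.1e-06) and -1.15 (limma adjusted p = 7.3e-06). In the 12 h groups it was -0.88 (limma adjusted p = 0.00046) after 5 Gy and -0.49 after 20 Gy, where it was under the fold threshold.

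The named row of H2afv held 1.74% to 70.2% of its locus, depending on the library. Over the locus, H2afv was 53.03, 72.22 and 76.99 FPKM in the control libraries, 27.41, 16.05 and 26.56 FPKM 24 h after 5 Gy and 31.94, 27.63 and 43.55 FPKM 24 h after 20 Gy. The log2 fold change of the H2afv locus was then -1.51 (limma adjusted p = 6.7e-05) and -0.96 (limma adjusted p = 0.0023), where the named row gave 0.40 and -0.12. Over the locus, H2afy averaged 46.58 ± 3.820 FPKM in the control group and 45.79 ± 8.811 FPKM 24 h after 20 Gy, and it was called in no comparison. Its log2 fold change was -0.07 and -0.04 at 24 h. The fall of H3f3a was -2.70 and -2.44 at 24 h over the locus, and that of H3f3b was -1.14 and -0.94.

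**Figure D5:**
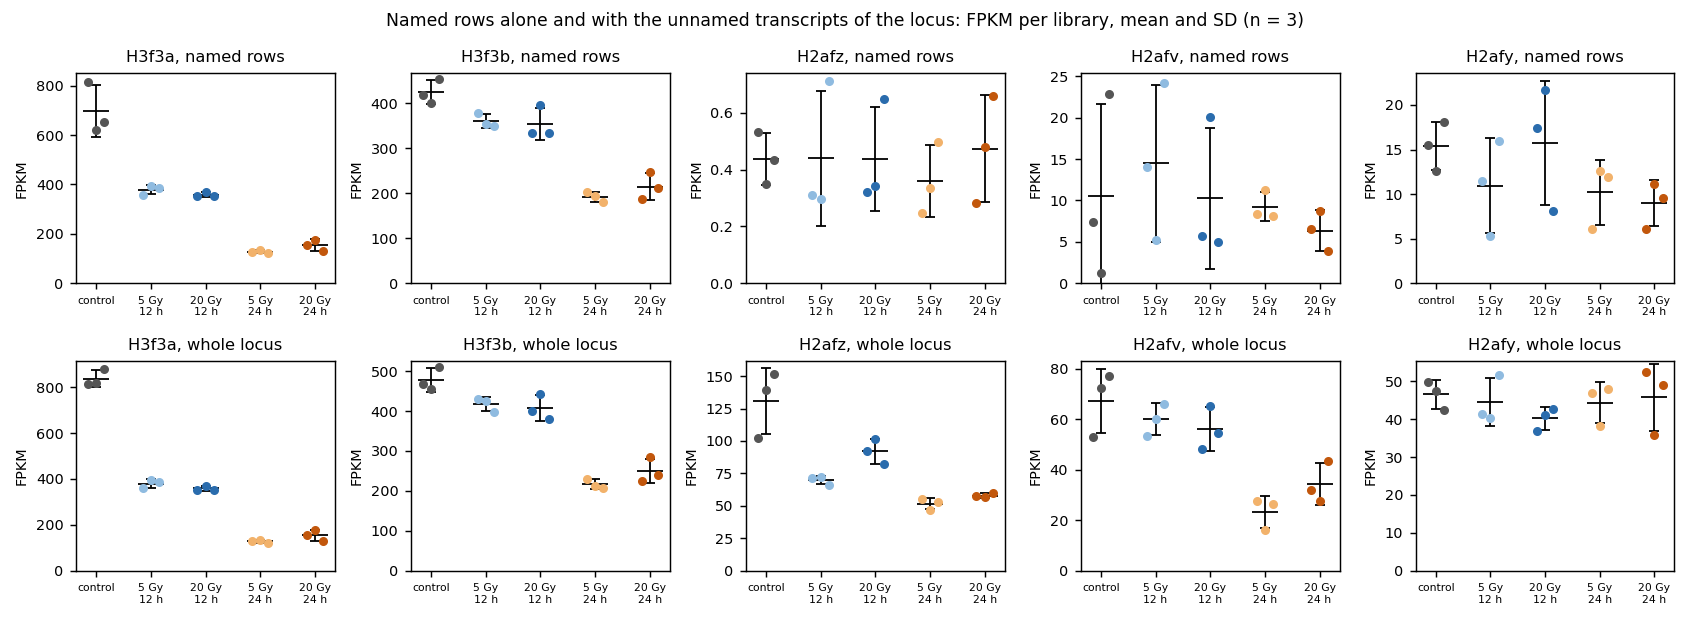
FPKM per library (vertical axes, linear from 0) of 5 replacement genes from their named rows (top) and with the unnamed transcripts of the same locus added (bottom), with the mean and SD of 3 libraries as bars. H2afz has a locus mean of 80.42 FPKM and a named mean of 0.4297 FPKM, and the spread of H2afv between libraries of a group is smaller over the locus.

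Between times within a dose, 16 of 25 histone genes were lower and none higher (limma) at 24 h than at 12 h after 5 Gy, and 10 were lower and none higher after 20 Gy. At an unadjusted p under 0.05, none was higher in either comparison. Among all genes tested, 14.1% were higher and 15.3% lower after 5 Gy, and 12.2% were higher and 17.7% lower after 20 Gy. For Hist-named genes the counts were 10 of 16 after 5 Gy and 4 of 16 after 20 Gy, and for replacement genes 6 of 9 after both doses. H2afj fell by 1.34 on the log2 scale between the times after 5 Gy (limma adjusted p = 5.5e-05). Hist1h4b fell by 2.03 after 5 Gy (limma adjusted p = 4.9e-05) and by 1.16 after 20 Gy (limma adjusted p = 0.0026).

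Between doses at 12 h, no histone gene was called (limma, lowest adjusted p = 0.67), and 1 of 25 had an unadjusted p under 0.05. Of all genes tested, 0.0444% were called. At 24 h, 2 of 25 were higher after 20 Gy than after 5 Gy and none was lower, where 0.597% of all genes were higher and 0.875% lower. They were Hist1h1c, with a log2 difference of 1.23 ± 0.19 (limma adjusted p = 0.0080), and H2afj, with 0.85 ± 0.16 (limma adjusted p = 0.024). In a fit of only these 2 groups both calls were lost (limma adjusted p = 0.213 for Hist1h1c and 0.178 for H2afj). H2afj was also lost with the replicate number as a block (limma adjusted p = 0.0551) and without replicate 2 or 3 of the 5 Gy group or replicate 1 of the 20 Gy group (up to 0.0864), while Hist1h1c was still called in these fits. Without replicate 1 of the 5 Gy group, 4 histone genes were called. At an unadjusted p under 0.05, 9 were higher and none was lower. The shares of all genes given here are for called genes and were not counted at this unadjusted threshold. Of the 16 Hist-named genes, 14 had a higher mean on the log2 scale after 20 Gy than after 5 Gy at 24 h, with a median difference of 0.43, and of the 9 replacement genes 4 did, with a median of -0.06. Of all 24797 genes tested, 9867 had a higher mean, and the median was -0.07. The 14 include the near-identical copies Hist2h2aa2 and Hist2h2aa3. The change from 12 h to 24 h was not called as different between the doses for any histone gene (limma, lowest adjusted p = 0.12), and 8 had an unadjusted p under 0.05. Of all genes tested, 0.319% were called.

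Genes that act on histone messages and proteins were described from lists of known genes. S-phase genes, which act in DNA copying, were lower in 15 of 21 tested 12 h after 5 Gy and in 12 of 21 after 20 Gy, where 3.58% and 2.75% of all genes tested were lower. At 24 h, 15 were lower after 5 Gy, and 16 were lower and 1 higher after 20 Gy, where 17.2% and 19.4% of all genes were lower. The median log2 fold change of the list was -1.73 and -1.66 at 24 h, beside -0.03 and -0.11 over all genes tested. With the unnamed transcripts of a locus added, 19 of 23 were lower 12 h after 20 Gy. The shares of all genes given here are from the fit without these transcripts. Ccna2, a cyclin of S phase, was 25.49, 33.98 and 35.50 FPKM in the control libraries and 2.230, 6.158 and 3.843 FPKM 24 h after 20 Gy, without overlap (log2 fold change -2.75). Tk1, Mcm5 and Mcm6, which make nucleotides and unwind DNA, had log2 fold changes of -2.71, -2.67 and -2.54 in the same comparison.

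Histone chaperones and exchange factors were lower in 5 and 2 of 28 tested at 12 h after 5 Gy and 20 Gy and in 9 and 10 at 24 h, and none was higher (limma), also at an unadjusted p under 0.05. Of all genes tested, 3.58% and 2.75% were lower at 12 h and 17.2% and 19.4% at 24 h. With the unnamed transcripts of a locus added, 6 of 32 were lower 12 h after 20 Gy, and 13 were lower and 6 higher 24 h after 5 Gy. The share of all genes called was not counted in that fit. Asf1b, a chaperone of H3 and H4, was 11.96, 15.83 and 16.95 FPKM in the control libraries and 1.155, 2.846 and 2.403 FPKM 24 h after 20 Gy, without overlap (log2 fold change -2.37). Cenpa, the histone H3 variant of centromeres, Chaf1b, a subunit of a chaperone that acts behind the replication fork, and Mms22l, which acts at stalled forks, had log2 fold changes of -1.74, -1.65 and -1.60.

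Genes of histone mRNA processing and turnover were called in 0, 1, 2 and 4 of 19 tested in the same order of groups, and the 4 at 24 h after 20 Gy were 2 higher and 2 lower. Both lower genes at 24 h after 5 Gy stand beside 17.2% of all genes lower and 17.1% higher, and the 4 after 20 Gy beside 19.4% lower and 14.5% higher, so that in this fit a smaller share of the list than of all genes was called. The median log2 fold change of the list was -0.04 and -0.22 at 24 h after 5 Gy and 20 Gy. At 12 h after 5 Gy, where none was called in limma, 5 had an unadjusted p under 0.05. With the unnamed transcripts added, 7 were called at 24 h after either dose, 3 higher and 4 lower, and the share of all genes was not counted in that fit. Slbp, the protein that binds the stem-loop of replication-dependent histone messages, was 9.528, 23.89 and 11.76 FPKM in the control libraries and 34.64, 32.58 and 27.60 FPKM 24 h after 20 Gy. Its groups did not overlap, and the log2 fold change was 1.12 (limma adjusted p = 0.0032). Zfp473, a zinc finger protein of histone message processing, was also higher (log2 fold change 1.12), from at most 0.2325 FPKM in the control libraries, and Mblac1 and Ncbp2 were lower (-1.14 and -0.73).

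Rows named only by a locus identifier, which RefSeq calls histone genes, were not among the 48. LOC684762, which RefSeq calls H3c13, was 7.838 ± 1.410 FPKM in the control group and 2.907 ± 0.4720 FPKM 24 h after 5 Gy. LOC684797, which RefSeq calls H2bcl2, was 3.792 ± 0.9019 FPKM in the control group and 0.5201 ± 0.3826 FPKM 24 h after 5 Gy.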

How the data were processed

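Poly-A RNA of 15 libraries was measured. Per the labels and the study's methods, the authors trimmed reads with Trimmomatic, checked them with FastQC, aligned them to Rnor_6.0 with HISAT2 2.0.13 and assembled transcripts, and kallisto and edgeR are also named among the tools without a version used here. The deposited values are FPKM per transcript, without counts, and whether strand was used is not given in the sources used here.

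Here FPKM was summed by gene name (85322 transcripts, of which 44258 carry no gene name and were kept by locus). limma 3.58.1 (R 4.3.3) was fitted to log2(FPKM + 1) with 1 mean per group over all 15 libraries (10 residual degrees of freedom, variance trend), and p-values were adjusted by Benjamini-Hochberg. No count model was used, since read counts were not analysed here. The p-values measure only the spread between these libraries, which may be technical. Group sums, ratios and positions were computed in Python 3.11.15. The fit was tested on simulated data with 200 changed genes, for 24 h after 20 Gy against the control group. It recovered 41% of genes given a log2 change of 1, and 74% where the change was 2. It gave 0 genes the wrong sign and called 9 unchanged genes. In the data, 14.5% of genes were called higher and 19.4% lower in this comparison, so the Benjamini-Hochberg cut-off was not the same. The recovered shares hold for the simulation and were not measured for the data. A gene that was not called may still differ. The members and lists were chosen with earlier results of these data known. Values in each library were given for the replacement genes over the minimum, the 8 Hist-named genes with the highest mean FPKM and, in each comparison with the control group, up to 4 called Hist-named genes in each direction, and from each list up to 4 genes with the largest change called 24 h after 20 Gy. Alternatives were another pseudocount (0.1), another or no minimum, rescaling to the same sum, quantile normalization, no variance trend, the replicate number as a block, unnamed transcripts of a locus added, a fit of only the groups compared, and each library left out.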

Additional observations from a re-analysis of the deposited data

Results flagged for a closer look

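H2afj and Hist1h1c differed between the doses at 24 h by the test of that difference (limma). H2afj was higher after 20 Gy than after 5 Gy by 0.85 on the log2 scale, and Hist1h1c by 1.23. Both calls were lost in a fit of only these groups (limma adjusted p = 0.178 and 0.213), and that of H2afj also with the replicate number as a block (limma adjusted p = 0.0551). At 24 h, every H2afj library lay below the control mean after 5 Gy (log2 fold change -0.45) and above it after 20 Gy (0.40). Between the times after 5 Gy, every H2afj library lay above the control mean at 12 h (0.89) and below it at 24 h (-0.45), a difference of -1.34 that was called in limma. Hist1h4b lay above the control mean in every library at 12 h and below it in every library at 24 h, with log2 fold changes of 0.57 and -1.46 after 5 Gy and 0.35 and -0.81 after 20 Gy, and both differences between the times were called in limma. The share of time in culture in these differences was not tested.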

How the results depend on the processing

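For single genes, 727 of 752 values under the alternatives other than leaving out a library, and 1194 of 1260 values without 1 library, kept their direction and their side of the threshold. With unnamed transcripts of a locus added, H2afv was -0.15 and -0.26 at 12 h and -1.51 at 24 h after 5 Gy. With libraries rescaled to an equal sum, H2afy2 was 0.0202 and 0.02265 at 12 h after 5 and 20 Gy, and Hist1h2bcl1 was 0.14 at 24 h after 5 Gy (0.19 with quantile normalization). Without 1 library, H2afv ranged from -0.08755 to 1.61, -0.58 to 1.12, -0.48 to 1.22 and -1.0 to 0.70 for 5 and 20 Gy at 12 h, then 5 and 20 Gy at 24 h. H2afy2 ranged from -0.06705 to 0.03633 and -0.08792 to 0.0316 at 12 h, H2afy from -0.33 to 0.33 at 12 h after 20 Gy, Hist1h2bcl1 from -0.12 to 0.15 at 24 h after 5 Gy and Hist2h2be from -0.49 to 0.01493 at 12 h after 5 Gy. The causes were not tested.

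Histone genes called without 1 library ranged from 3 to 7 at 12 h after 20 Gy, from 1 to 4 between doses at 24 h, and from 0 to 1 for the change between times compared between doses (1 without replicate 1 at 24 h after 5 Gy). Between doses at 24 h the count was 4 with unnamed transcripts added and 0 in a fit of only these groups. The share of all genes called was not counted under any alternative. The correlation of deviations was -0.0720 to 0.113 between libraries of the same replicate number and -0.106 to 0.066 between those of different numbers. Between the doses it was 0.104, 0.0196 and 0.113 for the same numbers at 12 h, and 0.0541, 0.0244 and 0.0215 at 24 h. Whether the numbers pair the libraries of the 2 doses is therefore uncertain. With the replicate number as a block, the count between doses at 24 h was 1, and 1 gene of histone message processing was called at 12 h after 5 Gy, as with a pseudocount of 0.1, quantile normalization or unnamed transcripts added. That list ranged from 0 to 1 without 1 library at 12 h after 5 Gy (1 without control replicate 1 or 2 or replicate 2 or 3 of the exposed group) and from 2 to 4 at 24 h after 5 Gy (4 without control replicate 2 or exposed replicate 2), and unnamed transcripts gave 7 at 24 h after either dose. Chaperones ranged from 3 (without exposed replicate 3) to 6 at 12 h after 5 Gy. For 20 Gy at 12 h they were 1 with a pseudocount of 0.1 or a fit of only these groups and 6 with unnamed transcripts, which gave 19 at 24 h after 5 Gy (6 of them higher) and 19 S-phase genes at 12 h after 20 Gy. With unnamed transcripts the replacement sum was 1728 FPKM in the control group, 1102 and 1101 FPKM at 12 h and 506.5 and 598.5 FPKM at 24 h, and with rescaling it was 404.2 FPKM at 24 h after 5 Gy. Low genes were limited by depth, with a median of 29.9 reads of 150 bases for Hist2h2be.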
